A study of Mus musculus with 8 samples.

Results

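The genes described here encode the enzymes, carriers and regulators of glycolysis and of the pentose phosphate pathway, in cultured mouse kidney cells treated with TGF-β and the compound chaetocin or with TGF-β alone. They were selected by symbol from the table of genes that the authors deposited, and all 42 of the 42 listed symbols were found among its 22274 genes. Per the labels, the cells are a fibroblast line called RFB from mouse kidney. Both groups received TGF-β, a cytokine that drives matrix production, and 4 samples also received chaetocin, a fungal compound known to inhibit SUV39 histone methyltransferases and to act on redox enzymes. The series is about SUV39H1 in kidney fibrosis, and its design text also names knockdown derivatives of the line, but the labels of these 8 samples give treatment only. Genotype, strain, dose and time are not stated, and every sample had TGF-β. The labels do not tie samples to separate cultures. Each p-value therefore measures only how these samples spread, which can be technical variation.

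Total counts per library were 14421225 to 22591935 with chaetocin and 20135312 to 23664084 with TGF-β alone. The libraries with chaetocin differed in depth among themselves, since replicate 1 had 22591935 counts and the next deepest had 15084876. The cells also expressed markers of other cell types. The summed level of 11 tubule epithelial markers, led by Krt8, Krt18 and Cdh1, was 6806 to 7082 CPM (counts scaled for depth by the TMM method) with chaetocin and 3652 to 3813 CPM with TGF-β alone. Keratins carried that difference, with Krt8 at a log2 fold change of 1.19 and Krt18 at 1.13. Cdh1 stood at -0.07, Lrp2 at -0.68 and Aqp1 at -0.60. The largest fold in this list was that of Cubn at 2.95, with 62.4 CPM with chaetocin and 8.07 CPM with TGF-β alone. Of the 10 tested markers 6 rose and 3 fell (edgeR, adjusted p under 0.05), where 42% of all tested genes rose and 38.8% fell. The 10 fibroblast markers summed to 507.5 to 649.7 CPM with chaetocin and 1435 to 1520.2 CPM with TGF-β alone, mostly Vim. Against the direction of that sum Dcn averaged 2.28 CPM with chaetocin and 0.129 CPM with TGF-β alone, and Lum was near 0 in both groups. The 6 leukocyte markers gave 131 to 151 CPM with chaetocin and 160.4 to 187 CPM with TGF-β alone. That sum hides a split, with Cd68 at a log2 fold change of 0.94, Cd14 at 0.87 and Ptprc at 0.29. C1qa stood at -1.58, Adgre1 at -1.5 and Csf1r at -0.63. The 4 endothelial markers gave 70.6 to 76.6 CPM with chaetocin and 30.7 to 35.3 CPM with TGF-β alone. The 4 neuronal markers gave 27 to 29.1 CPM with chaetocin and 20.3 to 23.2 CPM with TGF-β alone. Among them Map2 stood at 1.71 and Tubb3 at -1.2, while Syp and Snap25 were too low to test. The labelled cell type is therefore only partly matched by its markers. In such bulk samples, fewer cells of a type and less RNA per cell cannot be told apart, and the part of these markers in the results below was not tested.

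Glycolysis turns glucose into pyruvate in the cytosol and yields ATP and NADH. Pyruvate is then either reduced to lactate and exported or passed to the pyruvate dehydrogenase complex in mitochondria, whose activity is switched off by the pyruvate dehydrogenase kinases. The pentose phosphate pathway branches off at glucose 6-phosphate: its oxidative arm makes NADPH, which feeds antioxidant systems, and its non-oxidative arm makes ribose for nucleotides and returns carbon to glycolysis. Several steps are served by paralogs with different tissue patterns, and proximal tubule cells of the kidney are known for a low use of glycolysis.

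Most of these genes differed between the treatments, as did most genes in the transcriptome. Of the 42 members 40 had enough counts to be tested, and 24 of them rose with chaetocin and 11 fell (edgeR quasi-likelihood F test, adjusted p under 0.05 after Benjamini-Hochberg adjustment over all 14608 tested genes). That is 60% higher and 27.5% lower, where the whole set of tested genes gave 80.7% in either direction, 42% higher and 38.8% lower. The median log2 fold change was 0.16 over the 40 members and 0.02 over all genes tested. Changes of at least 2-fold were seen in 8 members, 20% against 24.6% of all genes, with 5 of them higher (19.7% of all genes were) and 3 lower (4.88% of all genes were). The groups did not overlap in 33 members, or 82.5%, where 74.7% of all tested genes did not overlap. Reads of the 42 genes made up 0.91% to 0.93% of each library with chaetocin and 0.657% to 0.675% of each with TGF-β alone. These shares are of total counts and weigh abundant genes most. They lack the TMM scaling of the CPM values, whose factors were 1.037 to 1.043 with chaetocin and 0.9566 to 0.9638 with TGF-β alone.

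**Figure D1:**
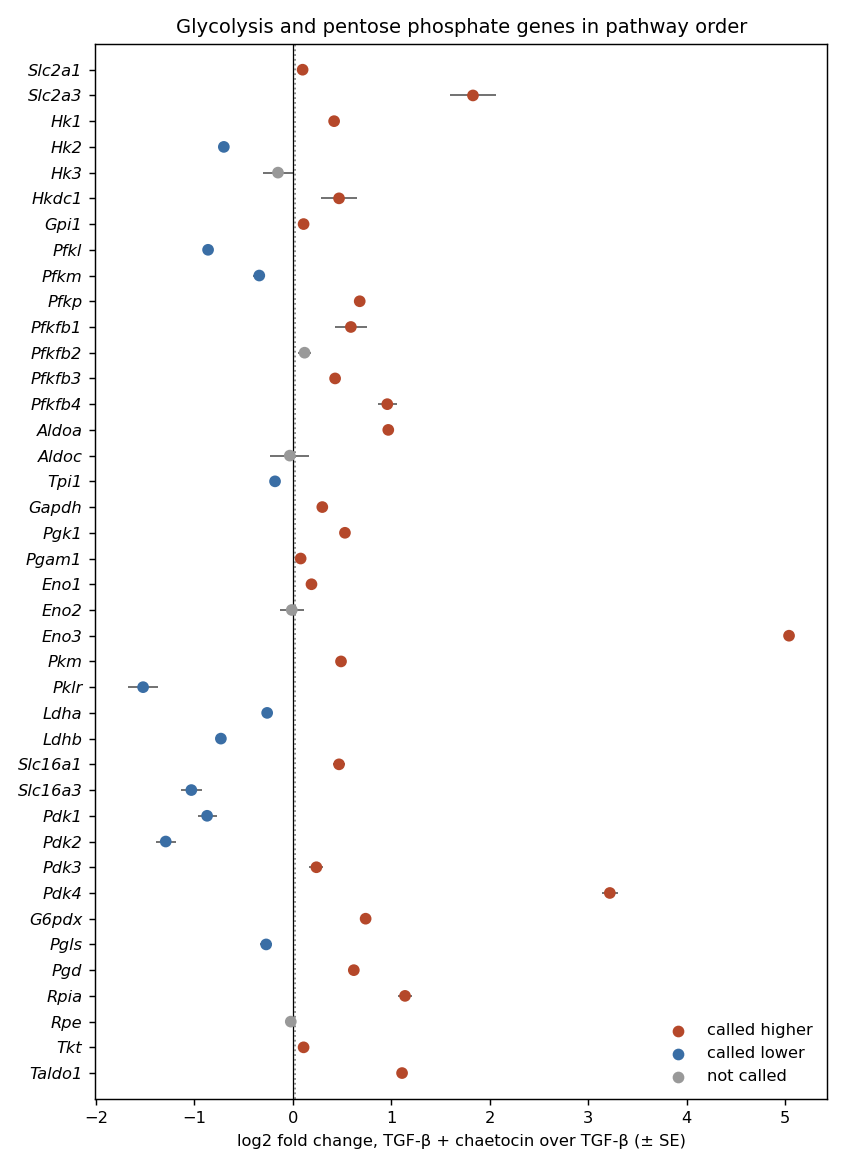
Log2 fold change with its standard error for the 40 tested members in pathway order, from uptake at the top to the pentose phosphate enzymes at the bottom, as TGF-β plus chaetocin over TGF-β alone. Points are coloured by call, the dotted line marks the median of all tested genes at 0.02, and Eno3 at 5.04 and Pdk4 at 3.22 stand to the right of the others.

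Both carriers of glucose uptake in the set were called higher, the abundant one by little. The main glucose carrier Slc2a1, which encodes GLUT1, had 253, 259, 240.2 and 248 CPM with chaetocin and 242, 235, 229 and 227 CPM with TGF-β alone. These values overlap, and the log2 fold change was 0.10 ± 0.03 (SE; adjusted p = 0.00171). Slc2a3, the gene of the high-affinity carrier GLUT3, was scarce, with 31 to 74 counts per library with chaetocin and 11 to 21 with TGF-β alone, and rose by 1.83 ± 0.23 on the log2 scale.

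Hexokinases phosphorylate glucose and so trap it in the cell. The widely expressed Hk1 had 261, 257, 263 and 261 CPM with chaetocin and 193, 197, 194 and 194 CPM with TGF-β alone, a log2 fold change of 0.42 ± 0.02 (SE; adjusted p = 3.54e-15). Hk2, the isoform typical of muscle and of proliferating cells, had 162, 161, 157 and 163 CPM with chaetocin and 260.1, 256, 262 and 262 CPM with TGF-β alone. Every library with chaetocin was thus above every library without it for Hk1 and below for Hk2, whose log2 fold change was -0.70 ± 0.03 (adjusted p = 1.08e-19). Hk3 was not called at -0.15 ± 0.15 and was called only with chaetocin replicate 3 left out (-0.36, adjusted p = 0.0202), while Hkdc1, a neighbour of Hk1 on chromosome 10, was called at 0.47 ± 0.18 (adjusted p = 0.0197). That call ended at an adjusted p of 0.0504 with DESeq2 and of 0.0506 to 0.087 when chaetocin replicate 1, TGF-β replicate 2 or TGF-β replicate 3 was left out, with a log2 fold change of 0.34 to 0.43.

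Paralogs can be set side by side only per length, for which the deposited FPKM values (scaled for gene length and for depth) were used. Hk2 made up 28% ± 0.483 of the summed hexokinase FPKM with chaetocin and 46.6% ± 0.442 with TGF-β alone (SD, n = 4 each). The sum itself was 108 to 113 FPKM with chaetocin and 96.5 to 98 FPKM with TGF-β alone. The share of Hk2 thus differed by -18.7 percentage points and the sum by a log2 ratio of means of 0.18. Such shares do not depend on how libraries are scaled, but the sums do. Over the 36 tested members with a mean of at least 5 CPM, log2 ratios of FPKM exceeded log2 fold changes of counts by a median of 0.12. The 0.18 of the hexokinase sum is near that offset, so no direction is read from it. Shares and sums were given no test.

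Phosphofructokinase, the main control point of glycolysis, also had paralogs of opposite direction. Pfkp, the platelet-type isoform, had 79, 75.7, 73.5 and 73.7 CPM with chaetocin and 44, 51.2, 48.2 and 46.3 CPM with TGF-β alone. Pfkl, the liver-type isoform, had 27.4, 26.4, 27.9 and 26.5 CPM with chaetocin and 49.6, 50.8, 49.1 and 47.2 CPM with TGF-β alone. Neither gene's groups overlapped, and the log2 fold changes were 0.68 ± 0.04 for Pfkp (adjusted p = 3.96e-14) and -0.86 ± 0.05 for Pfkl (adjusted p = 8.97e-16). The muscle-type Pfkm fell by 0.34 ± 0.06, a call that limma on log2(FPKM + 1) did not make (adjusted p = 0.377). Pfkp was the largest isoform by share with chaetocin, at 57.7% to 64% of the summed FPKM, and overlapped with Pfkl with TGF-β alone, at 37.1% to 38.9% for Pfkp and 38.3% to 41.5% for Pfkl. The exons of Pfkp share 748 bases with Pitrm1 on the opposite strand, and the sources used here do not say whether reads were counted by strand. Pitrm1 itself had a log2 fold change of -0.67.

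The bifunctional enzymes of the Pfkfb family set the level of fructose 2,6-bisphosphate, the strongest activator of phosphofructokinase. Of the 4 genes, 3 rose and none fell, where 42% of all tested genes rose and 38.8% fell. Pfkfb3, the isoform with the highest kinase activity and the most abundant here, had 46.9, 48, 51.4 and 49.4 CPM with chaetocin and 39, 34.7, 34.8 and 36.6 CPM with TGF-β alone (log2 fold change 0.43 ± 0.05; adjusted p = 4.23e-09). Pfkfb4 had 11, 10.4, 11.5 and 12.1 CPM with chaetocin and 5.74, 6.29, 5.83 and 5.32 CPM with TGF-β alone, so that each library with chaetocin was well above the others. Its log2 fold change was 0.96 ± 0.10 (adjusted p = 8.22e-10). Pfkfb1, a liver and muscle isoform, rose by 0.59 ± 0.16 from a low level. Pfkfb2 was not called at 0.12 ± 0.07 (adjusted p = 0.113), although it was under total-count scaling at 0.23 (adjusted p = 0.00315), with limma on FPKM (adjusted p = 0.047 and 0.0485 with a pseudocount of 1 and 0.1) and with chaetocin replicate 1 left out (adjusted p = 0.0216). It shares 1262 exon bases with Gm29427 on the same strand. Fbp1, which encodes the gluconeogenic enzyme that opposes phosphofructokinase, had 6 counts in all with chaetocin and 1 with TGF-β alone and was not tested. Gpi1, the isomerase between both kinases, had 281, 269.7, 272 and 274 CPM with chaetocin and 249, 250.5, 255 and 259 CPM with TGF-β alone, at 0.11 ± 0.02 on the log2 scale (adjusted p = 1.25e-04).

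Downstream of phosphofructokinase, from aldolase to pyruvate kinase, 7 of 11 tested genes were higher and 2 lower, where 42% of all tested genes were higher and 38.8% lower. Aldoa, the aldolase that cleaves fructose 1,6-bisphosphate, had 926, 920.3, 917 and 949.7 CPM with chaetocin and 464, 484, 488 and 462 CPM with TGF-β alone. No library of one group came near the other, at a log2 fold change of 0.97 ± 0.02 (adjusted p = 7.98e-24). The gene (ENSMUSG00000030695) lies on chromosome 7, positions 126795234 to 126800751 of GRCm38, minus strand. By FPKM Aldoa ranked 2 among the 42 members with chaetocin, at 730.5, and 4 with TGF-β alone, at 307. Another Ensembl gene with the symbol Aldoa had 1 or 2 counts per library with chaetocin and 0 to 7 with TGF-β alone and was left out. Aldoc, the brain-enriched paralog, was not called at -0.03 ± 0.20.

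Gapdh, often used as a reference gene, was not level between the treatments. It had 1851, 1838, 1851 and 1853 CPM with chaetocin and 1468, 1520.5, 1536 and 1463 CPM with TGF-β alone, a log2 fold change of 0.30 ± 0.02 (adjusted p = 1.63e-13). Pgk1, which makes the first ATP of the pathway, had 311, 307, 317 and 328 CPM with chaetocin and 218, 215, 222 and 220.5 CPM with TGF-β alone, at 0.53 ± 0.03 on the log2 scale (adjusted p = 8.46e-17). The groups of both genes were apart. Tpi1, the isomerase just upstream, fell by 0.18 ± 0.03, and with limma on log2(FPKM + 1) it was not called (-0.07, adjusted p = 0.0612). Pgam1, the main mutase, was called at 0.08 ± 0.03, a difference of 333 ± 10.2 CPM with chaetocin against 314 ± 3.96 CPM with TGF-β alone (SD, n = 4 each), and the call ended without the filter on low counts (0.05, adjusted p = 0.0936). The muscle mutase gene Pgam2 had 3 to 29 counts per library with chaetocin and 2 to 8 with TGF-β alone and was not tested.

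The largest change of the pathway was in Eno3, which encodes the enolase isoform of striated muscle. Eno3 had 272, 245, 254 and 282 CPM with chaetocin and 7.67, 8.2, 7.66 and 8.49 CPM with TGF-β alone. All libraries with chaetocin thus lay far above all libraries without it, and the fitted change was 32.9-fold (log2 fold change 5.04 ± 0.05 SE; adjusted p = 9.23e-31). By log2 fold change Eno3 ranked 475 from the highest among all 14608 tested genes, scarce ones included, so larger rises were seen outside the pathway. Of the 4404 tested genes with a mean of at least 50 CPM, 4 had a log2 fold change of at least 5. Eno3 is among these 4 and reaches that mean through the libraries with chaetocin. Eno1, the ubiquitous isoform, had 804, 813, 829 and 813 CPM with chaetocin and 712, 726, 715 and 706 CPM with TGF-β alone (0.19 ± 0.02; adjusted p = 3.76e-09), and the neuronal Eno2 was not called at -0.01 ± 0.12. In summed enolase FPKM the share of Eno3 was 30.1% to 33.4% with chaetocin and 1.49% to 1.66% with TGF-β alone. The summed enolase level was 622 to 644 FPKM with chaetocin and 345 to 360 FPKM with TGF-β alone. Eno3 ranked 6 among the 42 members by FPKM with chaetocin and 28 with TGF-β alone.

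Eno3 (ENSMUSG00000060600) lies on chromosome 11, positions 70657202 to 70662513 of GRCm38, plus strand, and its exons overlap no other gene in GENCODE M21. Its nearest tested neighbours also differed between the treatments, by less. Pfn1, 2558 bases away, rose by 0.77 on the log2 scale, Spag7, 1258 bases away, by 0.81, and Rnf167, 5781 bases away, by 1.63. Markers of muscle were at a low level. The 5 muscle markers summed to 3.13 to 4 CPM with chaetocin and 0.484 to 0.773 CPM with TGF-β alone. Ckm, the muscle creatine kinase gene, averaged 0.0714 CPM with chaetocin and 0.0343 CPM with TGF-β alone, and Myh4 0.0274 CPM with chaetocin and 0 CPM with TGF-β alone. Mb, which encodes myoglobin, had 18 to 31 counts per library with chaetocin and 0 to 3 with TGF-β alone. Actn3 had 24 to 35 counts per library with chaetocin and 3 to 9 with TGF-β alone. Mb and Actn3 passed the filter on low counts only through the libraries with chaetocin. Tnnt3 averaged 0.214 CPM with chaetocin and 0.175 CPM with TGF-β alone. The part of these markers in the Eno3 result was not tested.

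The promoter windows of Eno3 and of Pdk4, which had the largest changes, are shown with that of Ldha, which holds more matches to the hypoxia response core ACGTG than any other member window, and that of G6pdx, which holds a match to TGACNNNGC, the core of antioxidant response elements. Each runs 5′ to 3′ on the strand of the gene from 250 bases before to 50 bases after a start annotated by RefSeq on GRCm38.p6, and capitals mark matches to either motif on either strand. The positions are chr11:70656926-70657225 on the plus strand for Eno3, chr6:5496229-5496528 on the minus strand for Pdk4, chr7:46845554-46845853 on the plus strand for Ldha and chrX:74428831-74429130 on the minus strand for G6pdx.
Eno3: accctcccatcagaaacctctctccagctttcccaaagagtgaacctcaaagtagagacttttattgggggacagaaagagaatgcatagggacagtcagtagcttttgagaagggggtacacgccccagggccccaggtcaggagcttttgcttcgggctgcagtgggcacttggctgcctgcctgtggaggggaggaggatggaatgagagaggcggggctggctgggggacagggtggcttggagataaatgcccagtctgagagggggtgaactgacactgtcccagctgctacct
Pdk4: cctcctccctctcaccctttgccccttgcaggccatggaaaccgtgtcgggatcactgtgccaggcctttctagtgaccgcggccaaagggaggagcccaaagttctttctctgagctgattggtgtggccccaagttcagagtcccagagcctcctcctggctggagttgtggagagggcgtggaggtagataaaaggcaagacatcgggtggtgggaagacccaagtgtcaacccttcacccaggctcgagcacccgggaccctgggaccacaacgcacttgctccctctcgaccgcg
Ldha: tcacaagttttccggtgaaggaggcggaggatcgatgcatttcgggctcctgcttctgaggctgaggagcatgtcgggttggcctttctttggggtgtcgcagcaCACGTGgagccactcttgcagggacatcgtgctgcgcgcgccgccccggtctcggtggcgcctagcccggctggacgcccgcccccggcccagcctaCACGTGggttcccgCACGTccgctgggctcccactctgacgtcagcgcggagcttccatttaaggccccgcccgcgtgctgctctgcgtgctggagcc
G6pdx: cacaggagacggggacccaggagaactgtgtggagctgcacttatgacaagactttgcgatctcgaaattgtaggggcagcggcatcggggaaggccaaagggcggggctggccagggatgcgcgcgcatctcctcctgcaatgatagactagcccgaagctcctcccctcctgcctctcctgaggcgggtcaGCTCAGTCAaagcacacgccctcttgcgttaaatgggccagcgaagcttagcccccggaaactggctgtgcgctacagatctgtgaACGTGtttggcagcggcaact
No match to either motif is in the Eno3 and Pdk4 windows. The Ldha window holds 5 matches to ACGTG when both strands are counted. ACGTG is also contained in CACGTG, the E-box, which reads the same on both strands. The 2 E-boxes of this window are therefore each counted on both strands, and fewer capital stretches than matches are seen. In the G6pdx window the TGACNNNGC match is on the opposite strand with its leftmost base 57 bases before the start. Promoter windows were found for 41 members, of which 19 (46.3%) had ACGTG in at least 1 window and 7 (17.1%) had TGACNNNGC. Among 11454 tested genes with a window these shares were 28% and 16.7%, and 19.6% and 12.4% of all 32851 windows of that length held them. ACGTG was present in 11 of 23 members that rose, in 5 of 11 that fell and in 3 of 5 that were not called. A match is a run of letters, not a bound site.

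Pyruvate kinase closes glycolysis. Pkm, which yields the M1 and M2 isoforms that gene-level counts cannot tell apart, had 1337, 1306, 1351 and 1392 CPM with chaetocin and 971, 942, 974 and 952 CPM with TGF-β alone (log2 fold change 0.49 ± 0.02; adjusted p = 1.95e-17). Pklr, the isoform of liver and red cells, had 2.52, 1.98, 3.94 and 2.74 CPM with chaetocin and 7.07, 7.53, 7.95 and 9.2 CPM with TGF-β alone. It was lower in every library with chaetocin, by 1.52 ± 0.15 on the log2 scale (adjusted p = 6.55e-10), although limma on unfiltered log2(FPKM + 1) did not call it (-0.84, adjusted p = 0.0626). Pklr shares 711 exon bases with Hcn3 on the opposite strand, whose log2 fold change was 0.50. Globin transcripts, as markers of red cells, were at or near 0 in both groups.

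**Figure D2:**
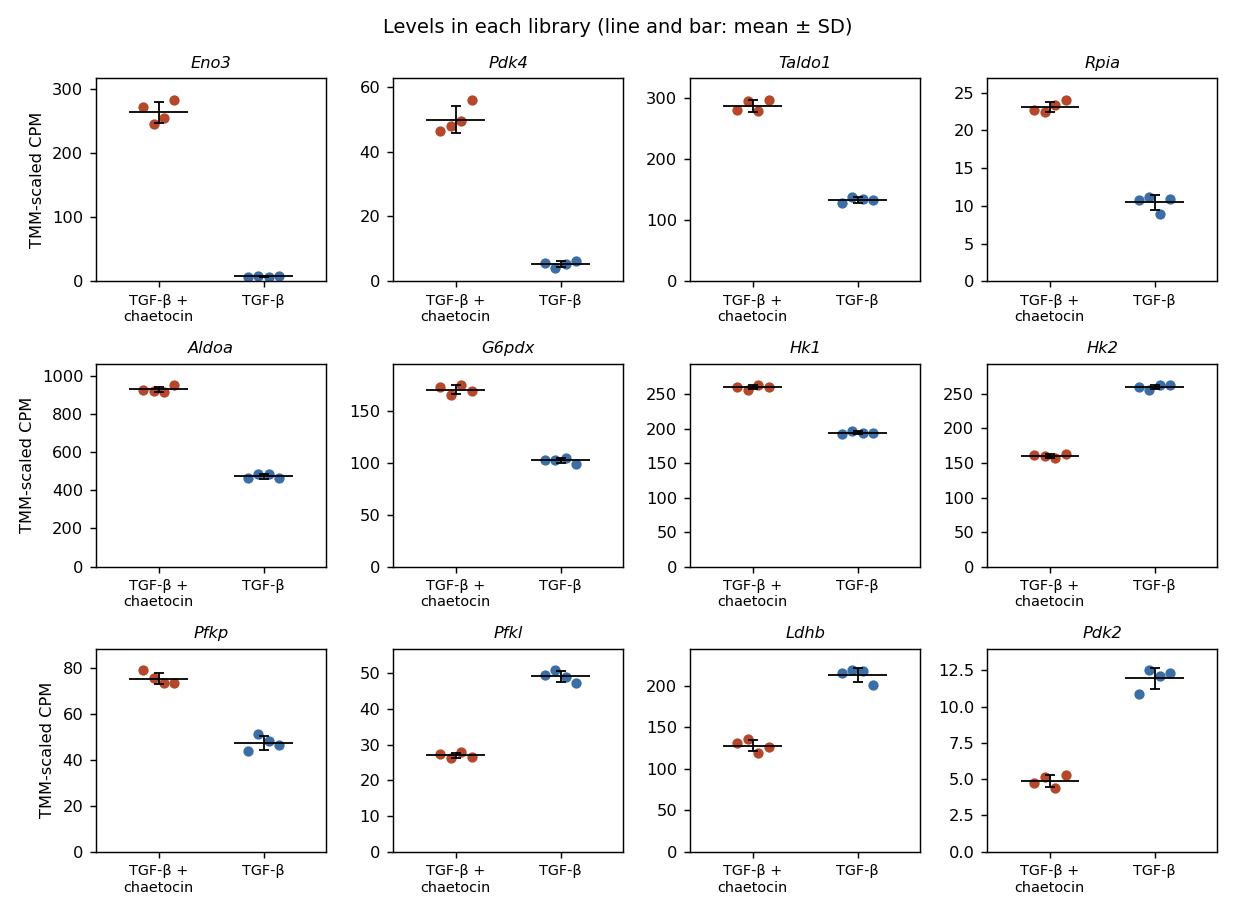
TMM-scaled CPM of 12 members in each library, with TGF-β plus chaetocin on the left and TGF-β alone on the right of each panel, and the mean with its SD as line and bar (n = 4 each). The points of the groups do not overlap in any of these panels, and Eno3 spans 245 to 282 CPM with chaetocin and 7.66 to 8.49 CPM with TGF-β alone.

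Of the 4 genes of lactate formation and export 3 fell and 1 rose, where 38.8% of all tested genes fell and 42% rose. Lactate dehydrogenase is built from the products of Ldha, the form that favours lactate formation, and Ldhb, the heart form. Ldhb had 131, 136, 119 and 126 CPM with chaetocin and 216, 218, 217 and 201 CPM with TGF-β alone, and Ldha 265, 253, 259 and 255 CPM with chaetocin and 298, 301, 315 and 319 CPM with TGF-β alone. Both were lower in every library with chaetocin, with log2 fold changes of -0.73 ± 0.03 for Ldhb (adjusted p = 3.82e-17) and -0.26 ± 0.03 for Ldha (adjusted p = 1.2e-09). Summed lactate dehydrogenase was 269.7 to 284 FPKM with chaetocin and 344 to 359 FPKM with TGF-β alone, and the share of Ldhb was 38.1% ± 1.37 with chaetocin and 46.4% ± 1.61 with TGF-β alone (SD, n = 4 each).

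Monocarboxylate carriers move lactate across the membrane. Slc16a3, the gene of MCT4, the exporter of highly glycolytic cells, had 6.11, 4.92, 9 and 7.21 CPM with chaetocin and 13.7, 13.2, 14.4 and 13.8 CPM with TGF-β alone, and fell by 1.03 ± 0.11 on the log2 scale (adjusted p = 3.24e-09). Slc16a1, the gene of the widely expressed MCT1, had 21 to 22.8 CPM with chaetocin and 15.4 to 16 CPM with TGF-β alone, and rose by 0.47 ± 0.06 (adjusted p = 6.89e-08). By FPKM Slc16a3 was 37.7% to 51.7% of the pair with chaetocin and 68.7% to 73% with TGF-β alone.

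The kinases that inactivate pyruvate dehydrogenase were divided. Pdk4, the isoform known to be induced by fasting and fatty acids, had 46.2, 47.9, 49.4 and 55.8 CPM with chaetocin and 5.6, 4.12, 5.33 and 6.16 CPM with TGF-β alone. It was far higher in every library with chaetocin, by 9.29-fold (log2 fold change 3.22 ± 0.08; adjusted p = 3.72e-23). Pdk2, a widely expressed isoform, had 4.74, 5.18, 4.4 and 5.29 CPM with chaetocin and 10.9, 12.5, 12.1 and 12.3 CPM with TGF-β alone, and Pdk1, a hypoxia-inducible isoform, 6.88, 6.39, 8.87 and 7.08 CPM with chaetocin and 12.6, 13.5, 12.6 and 14.3 CPM with TGF-β alone. Both fell without overlap, by 1.29 ± 0.10 for Pdk2 (adjusted p = 3.58e-12) and 0.87 ± 0.10 for Pdk1 (adjusted p = 3.85e-09). Pdk3 rose slightly, by 0.24 ± 0.07. Per length the family had a different leading member in each treatment: Pdk4 made up 52.5% to 57.8% of the summed FPKM with chaetocin and 9.01% to 11.7% with TGF-β alone, where Pdk3 led with 40.8% to 47.7%. The sum was 27.3 to 33.9 FPKM with chaetocin and 16.3 to 17.2 FPKM with TGF-β alone. Pdk4 (ENSMUSG00000019577) lies on chromosome 6, positions 5483351 to 5496309, minus strand, with no exon overlap. Its nearest tested neighbour Asb4, 50329 bases away, rose by 5.43 on the log2 scale, while Pon2, 184896 bases away on the same side, fell by 0.97. Asb4 was scarce, at 8.99 CPM with chaetocin and 0.197 CPM with TGF-β alone. On the other side Dync1i1, 229330 bases away, rose by 3.83, at 1.25 CPM with chaetocin and 0.0872 CPM with TGF-β alone.

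**Figure D3:**
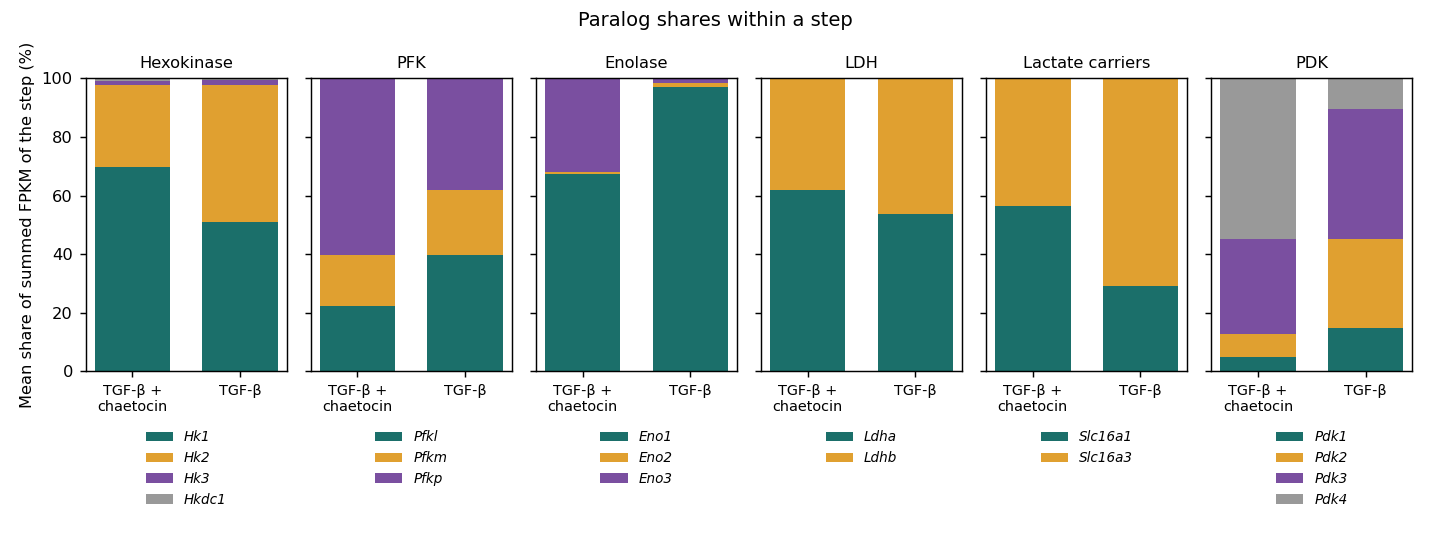
Mean share of each paralog in the summed FPKM of its step, with TGF-β plus chaetocin left of TGF-β alone in each panel (n = 4 libraries each). Hk2, Pfkl and Pdk2 take smaller shares with chaetocin, and Eno3 and Pdk4 larger ones, at 31.8% and 54.9% with chaetocin against 1.55% and 10.5% with TGF-β alone.

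Of the 7 pentose phosphate enzymes 5 were called higher and 1 lower, where 42% of all tested genes were higher and 38.8% lower, with a median log2 fold change of 0.62, against 0.02 for all genes tested. In the oxidative arm G6pdx, the rate-limiting dehydrogenase and first source of NADPH, had 173, 165, 174 and 168 CPM with chaetocin and 103, 102, 104 and 99.1 CPM with TGF-β alone. Pgd, the dehydrogenase that makes NADPH again further down, had 301, 296, 318 and 302 CPM with chaetocin and 196, 196, 205 and 196 CPM with TGF-β alone. Both were higher in every library with chaetocin, by 0.74 ± 0.03 for G6pdx (adjusted p = 6.76e-19) and 0.62 ± 0.03 for Pgd (adjusted p = 7.54e-18). Pgls, the lactonase between these enzymes, fell by 0.27 ± 0.06 (adjusted p = 1.49e-04). G6pdx shares 418 exon bases with Ikbkg on the opposite strand, which rose by 1.09, and Pgls shares 776 bases with the scarcely expressed Fam129c.

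In the non-oxidative arm Taldo1, the transaldolase, had 280.0, 295, 279 and 297 CPM with chaetocin and 128, 138, 134 and 134 CPM with TGF-β alone, a log2 fold change of 1.11 ± 0.03 (adjusted p = 7.83e-23). Rpia, the isomerase that forms ribose 5-phosphate, had 22.7, 22.5, 23.3 and 24 CPM with chaetocin and 10.8, 11.2, 8.99 and 10.9 CPM with TGF-β alone, and rose by 1.14 ± 0.07 (adjusted p = 2.93e-14). Libraries of the groups were well apart for both genes. Tkt, the transketolase, was called at 0.11 ± 0.02 (adjusted p = 1.51e-04), with 276 ± 2.08 CPM with chaetocin and 256 ± 4.71 CPM with TGF-β alone (SD, n = 4 each). Rpe, the epimerase beside Rpia, was not called at -0.02 ± 0.05 (adjusted p = 0.756), and it shares 558 exon bases with Kansl1l, which had a log2 fold change of -1.20. Taldo1 (ENSMUSG00000025503) lies on chromosome 7, positions 141392199 to 141402968, plus strand, and G6pdx (ENSMUSG00000031400) on chromosome X, positions 74409483 to 74429194, minus strand.

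The order of the members by level also shifted. Gapdh led in both groups, at 1435 FPKM with chaetocin and 1070.1 FPKM with TGF-β alone. Then came Aldoa, Pkm, Eno1 and Taldo1 with chaetocin, and Pkm, Eno1, Aldoa and Ldha with TGF-β alone. Changes near 0.1 on the log2 scale, as in Slc2a1, Gpi1, Pgam1 and Tkt, are about as large as the shift between scalings, since the median of all genes was 0.02 under TMM and 0.14 under total-count scaling. Tested genes with a mean of at least 50 CPM had a median of -0.12.

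Genes around the pathway did not share one direction. Each count of them is to be read against the 42% of all tested genes that rose and the 38.8% that fell. Among other sugar carriers 6 of 9 tested genes rose and 2 fell, and all but 1 had a mean below 5 CPM over the 8 libraries. The count is no result about the list. Slc2a12, Slc5a1, Slc2a4 and Slc2a6, with 0 to 15 counts per library with TGF-β alone, passed the filter on low counts through the libraries with chaetocin. With limma on filtered FPKM 1 rose and 1 fell. Slc2a12 reached 3.33 ± 0.358 CPM with chaetocin, against 0.19 ± 0.139 CPM with TGF-β alone (SD, n = 4 each), and Slc5a1, the sodium-coupled glucose carrier SGLT1, rose by 3.25 on the log2 scale. Slc2a10 and Slc2a8 fell by 1.61 and 0.42. Slc2a10 had 5 to 19 counts per library with chaetocin and 30 to 43 with TGF-β alone, and needed the latter libraries to pass that filter. Other enzymes of sugar entry and of 2,3-bisphosphoglycerate gave 3 higher and 4 lower of 10, with the galactose enzymes Galm at 0.79 and Galk1 at -0.80, and the mutase gene Bpgm at -0.58.

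Pyruvate carriers, the pyruvate dehydrogenase complex and partner proteins gave 6 higher and 7 lower of 17 (median -0.06). Pdha1, the catalytic subunit that the Pdk kinases phosphorylate, fell by 0.63 to 140.1 ± 3.97 CPM with chaetocin, against 217 ± 7.19 CPM with TGF-β alone, and Pdpr, the regulatory subunit of the opposing phosphatase, fell by 1.54. Slc16a7, the gene of MCT2, rose by 1.13 and Emb, an accessory protein of these carriers, by 0.48. Other sources of NADPH and users of ribose 5-phosphate gave 7 higher and 12 lower of 22 (median -0.34). The 7 include Tktl1, with 0 to 3 counts per library with TGF-β alone and 15 to 25 with chaetocin. Tktl1 passed the filter on low counts only through the libraries with chaetocin. Rbks, also among the 7, had 8 to 26 counts per library with TGF-β alone and 29 to 78 with chaetocin. Rbks too needed the libraries with chaetocin to pass. Malic enzyme Me1 rose by 0.67 and the NAD kinase gene Nadk by 0.25. H6pd, the G6pdx counterpart in the endoplasmic reticulum, fell by 0.95 and the folate enzyme gene Aldh1l1 by 1.32. Thus H6pd and G6pdx, which catalyse the same reaction in different compartments, had opposite signs.

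Glycogen and hexosamine genes gave 5 higher and 9 lower of 19, while total-count scaling gave 8 higher and limma on FPKM 5 lower. The 5 include Pygm, with 7 to 17 counts per library with TGF-β alone and 17 to 38 with chaetocin. Pygm needed the libraries with chaetocin to pass the filter on low counts. Named by rule are the UDP-glucose dehydrogenase gene Ugdh at 1.19, the glycogen branching enzyme gene Gbe1 at 1.09, the O-GlcNAc transferase gene Ogt at -0.79 and Uap1, for UDP-GlcNAc synthesis, at -0.76. Hypoxia-responsive genes outside glycolysis gave 5 higher and 11 lower of 18 (median -0.26), or 3 higher with limma on filtered FPKM. The 5 include Car9, with 5 or 6 counts per library with TGF-β alone and 11 to 27 with chaetocin. Car9 too passed the filter on low counts only through the libraries with chaetocin. Adm, which encodes adrenomedullin, stood at 3.32 and the carbonic anhydrase gene Car12 at 1.40, while the angiogenic factor gene Vegfa stood at -0.76 and the repressor gene Bhlhe40 at -0.72. Regulators of the pathway gave 5 higher and 12 lower of 18 (median -0.31, against 42% higher and 38.8% lower of all tested genes). The 5 include Mlxipl, with 10 to 20 counts per library with TGF-β alone and 22 to 40 with chaetocin. Mlxipl needed the libraries with chaetocin to pass the filter on low counts. The p53 gene Trp53 stood at 0.47, the deacetylase gene Sirt6 at 0.73, Myc at -0.99 and the glucose-sensing factor gene Mlxip at -0.81. Hif1a and Epas1, which encode the oxygen-regulated factors HIF-1α and HIF-2α, and Nfe2l2, which encodes NRF2, were picked after their values were seen. Hif1a had 137 ± 1.35 CPM with chaetocin and 220.4 ± 8.3 CPM with TGF-β alone (log2 fold change -0.69). Epas1 went the other way, with 11.5 ± 0.238 CPM with chaetocin and 5.36 ± 0.435 CPM with TGF-β alone (1.11). Nfe2l2 had 135 ± 1.98 CPM with chaetocin and 168 ± 4.1 CPM with TGF-β alone (-0.32; SD, n = 4 each). The activity of these factors is set largely at the level of the protein, so transcript levels do not measure it.

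**Figure D4:**
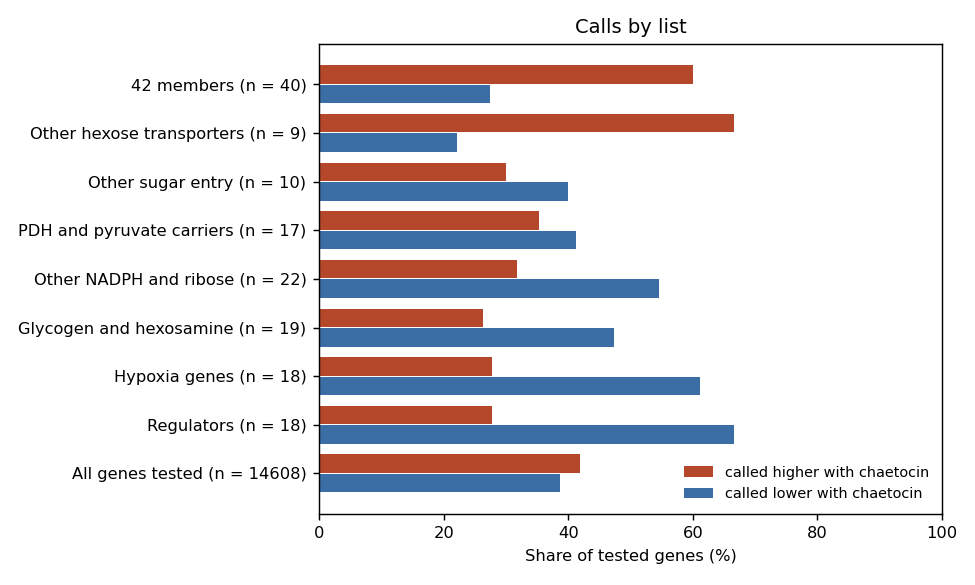
Share of tested genes called higher or lower with chaetocin for the 42 members, 7 lists of related genes and all tested genes, with the number tested in brackets. Members were called higher in 60% and lower in 27.5%, all genes in 42% and 38.8%, and regulators in 27.8% and 66.7%. Some lists hold scarce genes that passed the filter on low counts only through the group where they are high.

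Isoforms normally restricted to liver, muscle or germ cells were nearly silent. Of 15 such genes 4 had enough counts to be tested and 3 of these rose, which is no result about the list, since a gene silent without chaetocin passed the filter only if it was present with it. Slc2a2, the gene of the liver carrier GLUT2, had 3.59 ± 0.82 CPM with chaetocin and 0.581 ± 0.211 CPM with TGF-β alone (SD, n = 4 each). The other 11, among them Gapdhs, Pgk2 and Ldhc, had 128 counts in all with chaetocin and 26 with TGF-β alone.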

How the data were processed

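RNA was sequenced from 8 samples, with an RNeasy column kit and a SMARTER mRNA kit per the labels' protocols. The authors deposited 1 table that gives, per the file headers, the read count of each gene in each sample and the matching FPKM. It also holds the authors' mean FPKM, the log2 ratio of these means, and a p-value and FDR from a test it does not name; these deposited columns served for description only. The submitters' processing notes name the build GRCm38 (mm10). Aligner, counter, annotation and strand setting: not given in the sources used here. In the authors' deposited table the log2 ratio of FPKM differed from the log2 fold change of counts by -0.01 to 0.47 (median 0.12) over the 36 tested members with a mean of at least 5 CPM. That median is about the shift between scalings, since the median of all genes was 0.02 under TMM and 0.14 under total-count scaling. The spread around it, as in the abundant Aldoa at 0.28, shows that the FPKM are not counts divided by 1 fixed length and depth. The FPKM served for levels between genes, not for the main test.

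Counts were tested with edgeR 4.0.16 in R 4.3.3 (filterByExpr, TMM, glmQLFit, glmQLFTest) over 14608 genes, with Benjamini-Hochberg adjustment over all of them and a threshold of 0.05; every adjusted p given without a tool is from this fit. A standard error is the log2 fold change divided by the square root of F. A count of 3 equals 0.127 to 0.208 CPM, and counting error alone sets that floor. Gene positions and overlaps are from GENCODE M21 on GRCm38, and promoter windows from RefSeq. Pseudogenes named after Aldoa, Gapdh, Pgk1, Pgam1 and Ldha (2 each in GENCODE M21) may share their reads. Exons of 17 members overlap another annotated gene.

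The members, lists and tests were chosen with earlier results of these data known. Values in every library are given for tested members that were called with an absolute log2 fold change of at least 0.5 and a mean of at least 5 CPM (17 genes), and for the member with the highest FPKM of each role (9 more, of which Fbp1 was too low to test); each list gave the 2 called genes with the smallest p in each direction, some of which are not reported here. For the shares, mutases, enolases, lactate dehydrogenases and lactate carriers were each taken as a step of their own. Alternatives were DESeq2 1.42.0 and its size factors, total-count scaling, other filters, limma 3.58.1 with voom or on log2(FPKM + 1) or log2(FPKM + 0.1), a replicate block and each library left out.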

Additional observations from a re-analysis of the deposited data

Results flagged for a closer look

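Among 80 sets of 4 libraries (40 tested members in 2 groups), 6 had a library that stood apart from the other 3 by Dixon's test, where chance gives about 1 in 20. With chaetocin, replicate 3 had 23.1 CPM of Pfkm against 19 to 19.7 CPM in the others. Replicate 2 had 1838 CPM of Gapdh against 1851 to 1853 CPM. Replicate 4 had 21.2 CPM of Pdk3 against 18.5 to 18.9 CPM. With TGF-β alone, replicate 4 had 201 CPM of Ldhb against 215.7 to 218.5 CPM, replicate 3 had 205 CPM of Pgd against 195.7 to 196.3 CPM, and replicate 2 had 47.4 CPM of Rpe against 44.2 to 44.4 CPM. Each was in a different library.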

How the results depend on the processing

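Of the 35 called members, 31 to 35 were called in the same direction under each alternative and none in the opposite one. Leaving out 1 library gave 23 to 24 members higher and 11 to 12 lower, and 6030 to 6276 genes higher and 5538 to 5677 lower in all. Replicate numbers did not pair the samples: correlations between same-numbered libraries were -0.013 to 0.032, and the replicate block gave 24 members higher and 11 lower. Counts that moved by over 1.5 times were all of lists: glycogen and hexosamine genes higher 8 (total-count scaling, and limma on unfiltered FPKM) and lower 5 (limma on FPKM, each of 3 settings), other sugar carriers higher 1 and lower 1 and hypoxia genes higher 3 (limma on filtered FPKM with either pseudocount), and restricted isoforms higher 10 (no low-count filter, and limma on unfiltered FPKM), 8 (DESeq2) and 0 (limma on filtered FPKM). In CPM the share of Eno3 differed by 23.1 and that of Pdk4 by 49.9 percentage points, against 30.3 and 44.4 in FPKM, since CPM is not per length. Values of uncalled members near 0 changed sign without being called. The log2 fold change of Aldoc was 0.08 under total-count scaling and -0.19 to 0.13 with single libraries left out. That of Eno2 was 0.01 with DESeq2 size factors and with at least 1 CPM in 4 libraries, 0.11 under total-count scaling, 0.00 with limma on FPKM and -0.09 to 0.08 with libraries left out. That of Rpe was 0.10 under total-count scaling, 0.00 with at least 1 CPM in 4 libraries, 0.01 with limma on FPKM and -0.05 to 0.02 with libraries left out. The cause of these shifts was not tested.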
